A study of Mus musculus with 9 samples.

Results

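The 6 Cdk inhibitors Cdkn1a, Cdkn1b, Cdkn2a, Cdkn2b, Cdkn2c and Cdkn2d and the 3 pocket proteins Rb1, Rbl1 and Rbl2 were followed in primary mouse embryo fibroblasts (MEFs). All probe-sets assigned to these 9 genes were taken, whatever their signal, which gave 16 of the 45101 probe-sets and 9 of the 18194 named genes on the array. In all 3 groups were compared with 3 cultures each: Tgif1 -/- MEFs at passage 3 (the null), wild type MEFs at passage 5 (P5) and wild type MEFs at passage 3 (P3). Cells of every group came from 13.5 day embryos of a mixed C57BL/6J x 129Sv/J background, were grown in DMEM with 10% fetal bovine serum, and received no treatment. The null lacks Tgif1, a corepressor of TGF-beta responsive genes, in all cells from the start of development, and it was measured at passage 3 only. Each array holds the RNA of a whole culture, so fewer cells that express a gene and less RNA per cell cannot be told apart.

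Cells pass from G1 into S phase when cyclin-dependent kinases phosphorylate the pocket proteins Rb1 (Rb), Rbl1 (p107) and Rbl2 (p130), which then release E2f factors from repression. Inhibitors of the Ink4 family, Cdkn2b (p15), Cdkn2a (p16Ink4a), Cdkn2c (p18) and Cdkn2d (p19Ink4d), bind Cdk4 and Cdk6 and block the D-type cyclin kinases. Those of the Cip/Kip family, Cdkn1a (p21), Cdkn1b (p27) and Cdkn1c (p57), bind cyclin and kinase together and stop Cdk2 complexes. Cdkn2a also encodes p19Arf from a separate first exon, and p19Arf stabilises p53 by holding back Mdm2. In cultured mouse fibroblasts p19Arf, p16Ink4a and p53 with its target Cdkn1a are the best known brakes that build up with passage, and Cdkn2b and Cdkn1a are textbook TGF-beta targets.

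Tgif1 itself had log2 signals of 2.48, 3.21 and 2.50 in the null cultures and 10.06, 10.07 and 10.18 in the P5 cultures, against 9.82, 9.95 and 9.72 in the P3 cultures. The null arrays thus lay near the lowest value of the data, 2.23, and it was not established whether these probes lie in the removed sequence. Array medians were between 2.48 and 2.50, arrays of a group correlated with r of 0.996 to 0.999 over all probe-sets, and 18127 to 18258 probe-sets per array were above a log2 signal of 4. Of the 16 probe-sets followed here, 11 passed that level on at least 3 arrays, and these cover all 9 genes.

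The starts of the genes are shown because 4 Ink4 genes carried most of the differences below, because 3 of them are placed on 1 chromosome, and because the letters bound by E2f factors were found at Cdkn2a and Rbl1. Of the 9 genes, 8 had a promoter in the RefSeq table of build GRCm38.p6, as 11 windows that run from 250 bases before to 50 bases after a start. The windows of Cdkn1a, Cdkn1b and Rbl2 are not printed, and held none of the E2F or TGIF letters given next. Printed windows were thus chosen in part by their matches. Capitals mark the E2F letters TTTCCCGC, TTTGGCGC, TTTCGCGC or TTTGCCGC and the TGIF letters CTGTCA, searched on both strands, with no overlap between an E2F and a TGIF match. Sequences are given 5′ to 3′ on the strand of the gene.
Cdkn2b (chr4:89310983-89311282, minus strand): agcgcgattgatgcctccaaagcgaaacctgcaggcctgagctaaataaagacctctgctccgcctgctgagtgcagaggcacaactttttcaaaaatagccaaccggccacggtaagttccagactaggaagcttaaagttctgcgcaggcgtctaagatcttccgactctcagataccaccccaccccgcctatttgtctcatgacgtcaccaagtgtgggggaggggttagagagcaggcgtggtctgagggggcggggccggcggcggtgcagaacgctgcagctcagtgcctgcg
Cdkn2a, upstream start (chr4:89294570-89294869, minus strand): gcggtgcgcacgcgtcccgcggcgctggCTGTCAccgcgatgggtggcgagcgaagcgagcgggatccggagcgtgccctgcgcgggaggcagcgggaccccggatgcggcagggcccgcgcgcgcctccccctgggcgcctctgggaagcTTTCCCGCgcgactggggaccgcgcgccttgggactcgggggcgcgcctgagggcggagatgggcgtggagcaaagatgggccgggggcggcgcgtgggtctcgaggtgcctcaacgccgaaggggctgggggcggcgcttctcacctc
Cdkn2a, downstream start (chr4:89282143-89282442, minus strand): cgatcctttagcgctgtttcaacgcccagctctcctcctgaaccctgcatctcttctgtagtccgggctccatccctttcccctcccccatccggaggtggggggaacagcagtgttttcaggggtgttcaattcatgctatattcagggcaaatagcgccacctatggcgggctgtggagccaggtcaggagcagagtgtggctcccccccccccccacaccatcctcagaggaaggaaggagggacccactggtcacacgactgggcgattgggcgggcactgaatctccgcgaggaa
Cdkn2c, upstream start (chr4:109666707-109667006, minus strand): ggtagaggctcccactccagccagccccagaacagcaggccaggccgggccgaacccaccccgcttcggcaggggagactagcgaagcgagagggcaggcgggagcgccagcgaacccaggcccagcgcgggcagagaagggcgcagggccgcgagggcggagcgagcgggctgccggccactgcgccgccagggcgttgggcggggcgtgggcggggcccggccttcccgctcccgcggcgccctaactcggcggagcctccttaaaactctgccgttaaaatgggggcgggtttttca
Cdkn2c, downstream start (chr4:109665323-109665622, minus strand): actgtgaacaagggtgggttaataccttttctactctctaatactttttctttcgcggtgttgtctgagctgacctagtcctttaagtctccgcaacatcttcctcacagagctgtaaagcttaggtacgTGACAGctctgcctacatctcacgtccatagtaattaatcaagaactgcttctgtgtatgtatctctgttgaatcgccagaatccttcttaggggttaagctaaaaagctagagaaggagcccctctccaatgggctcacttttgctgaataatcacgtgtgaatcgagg
Cdkn2d (chr9:21291160-21291459, minus strand): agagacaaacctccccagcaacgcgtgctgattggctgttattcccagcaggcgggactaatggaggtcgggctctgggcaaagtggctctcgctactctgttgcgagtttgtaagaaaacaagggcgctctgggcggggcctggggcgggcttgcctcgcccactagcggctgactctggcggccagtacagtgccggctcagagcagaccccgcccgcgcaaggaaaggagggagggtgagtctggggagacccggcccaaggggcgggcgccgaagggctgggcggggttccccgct
Rbl1 (chr2:157204485-157204784, minus strand): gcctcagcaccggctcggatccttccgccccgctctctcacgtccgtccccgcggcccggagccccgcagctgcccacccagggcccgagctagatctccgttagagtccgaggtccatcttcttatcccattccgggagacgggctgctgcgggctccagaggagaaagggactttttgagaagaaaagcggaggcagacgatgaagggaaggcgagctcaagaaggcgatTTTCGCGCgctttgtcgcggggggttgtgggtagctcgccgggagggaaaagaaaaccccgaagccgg
E2F letters were found in 2 of the 11 windows, at the upstream start of Cdkn2a and at Rbl1, and in 2.26% of the 32851 windows of the same length over all genes. The Cdkn2a match begins 99 bases before the start, and the Rbl1 match begins 18 bases before it. TGIF letters were found in 2 of the 11 windows, the upstream start of Cdkn2a, 222 bases before it, and the downstream start of Cdkn2c, 120 bases before it, and in 19.2% of all windows. On chromosome 4 the start of Cdkn2b lies 16413 bases upstream of the first Cdkn2a start, and the second Cdkn2a start lies 12427 bases further downstream on the same minus strand. The upstream Cdkn2a start is that of the p19Arf transcript, and the downstream start that of p16Ink4a. Both transcripts share their later exons, and the suffix of the single Cdkn2a probe-set (1450140_a_at) marks probes common to several transcripts of a gene, so the array does not separate them.

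Cdkn2a had the widest range of the 9 genes over the 9 arrays. Its log2 signals were 9.53, 9.68 and 9.80 in the null cultures and 11.66, 11.71 and 11.61 in the P5 cultures, against 9.77, 9.56 and 9.85 in the P3 cultures. The P5 cultures lay apart from both passage 3 groups, while the null and P3 cultures covered the same range. Cdkn2a rose in P5 over P3 by 1.94 on the log2 scale (SE 0.095, 3.83-fold, adjusted p = 0.000349 by limma's moderated test over all 45101 probe-sets). It fell by 1.99 in the null against P5 (SE 0.095, adjusted p = 0.000319). Between null and P3 the difference was -0.05 with a 95% interval of -0.28 to 0.17 (adjusted p = 1).

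Cdkn2b, the neighbour of Cdkn2a, showed another pattern. Signals were 11.65, 11.49 and 11.39 in the null cultures and 11.65, 11.69 and 11.61 in the P5 cultures, against 11.18, 11.16 and 11.09 in the P3 cultures. Every null and every P5 culture lay above every P3 culture, and the null and P5 cultures overlapped. Cdkn2b rose in P5 over P3 by 0.51 (SE 0.066, 1.42-fold, adjusted p = 0.00723). The null was 0.36 above P3 (SE 0.066, 1.29-fold), which missed the threshold (adjusted p = 0.0630). Against P5 the null differed by -0.14, with an interval of -0.30 to 0.02 (adjusted p = 0.366).

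For Cdkn2c, the inhibitor p18, the 3 groups were ordered without overlap, null below P3 below P5. Its signals were 7.37, 7.47 and 7.34 in the null cultures and 8.16, 8.10 and 7.99 in the P5 cultures, against 7.73, 7.56 and 7.62 in the P3 cultures. The gene rose in P5 over P3 by 0.44 (SE 0.062, 1.36-fold, adjusted p = 0.00880) and fell by 0.69 in the null against P5 (SE 0.062, adjusted p = 0.00226). The difference between null and P3, -0.24 (SE 0.062), did not pass the test (adjusted p = 0.162). The P5 over P3 increase missed the threshold when the prior for the spread followed the signal and resisted extreme values (adjusted p = 0.108).

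Cdkn2d, the inhibitor p19Ink4d, ran the opposite way to Cdkn2c. Null cultures had signals of 9.38, 9.23 and 9.05 and P5 cultures had 8.21, 8.12 and 8.18, against 8.75, 8.66 and 8.92 in P3 cultures. The groups again did not overlap, with P5 lowest and the null highest. Cdkn2d fell by 0.61 in P5 against P3 (SE 0.099, adjusted p = 0.0154) and rose in the null over P5 by 1.05 (SE 0.099, 2.07-fold, adjusted p = 0.00263). The null stood 0.44 above P3 (SE 0.099, 1.36-fold, adjusted p = 0.115). Under some settings the call in P5 against P3 was lost. Its adjusted p was 0.0579 without P3 replicate 1 and 0.0525 without P5 replicate 1. It was 0.0656 without P5 replicate 2 and 0.0504 without P5 replicate 3. Differences in these settings were -0.63 to -0.58. On all 9 arrays the adjusted p was 0.0697 with a prior that followed the signal and resisted extreme values. It was 0.0616 when the replicate number was fitted as a block.

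**Figure D1:**
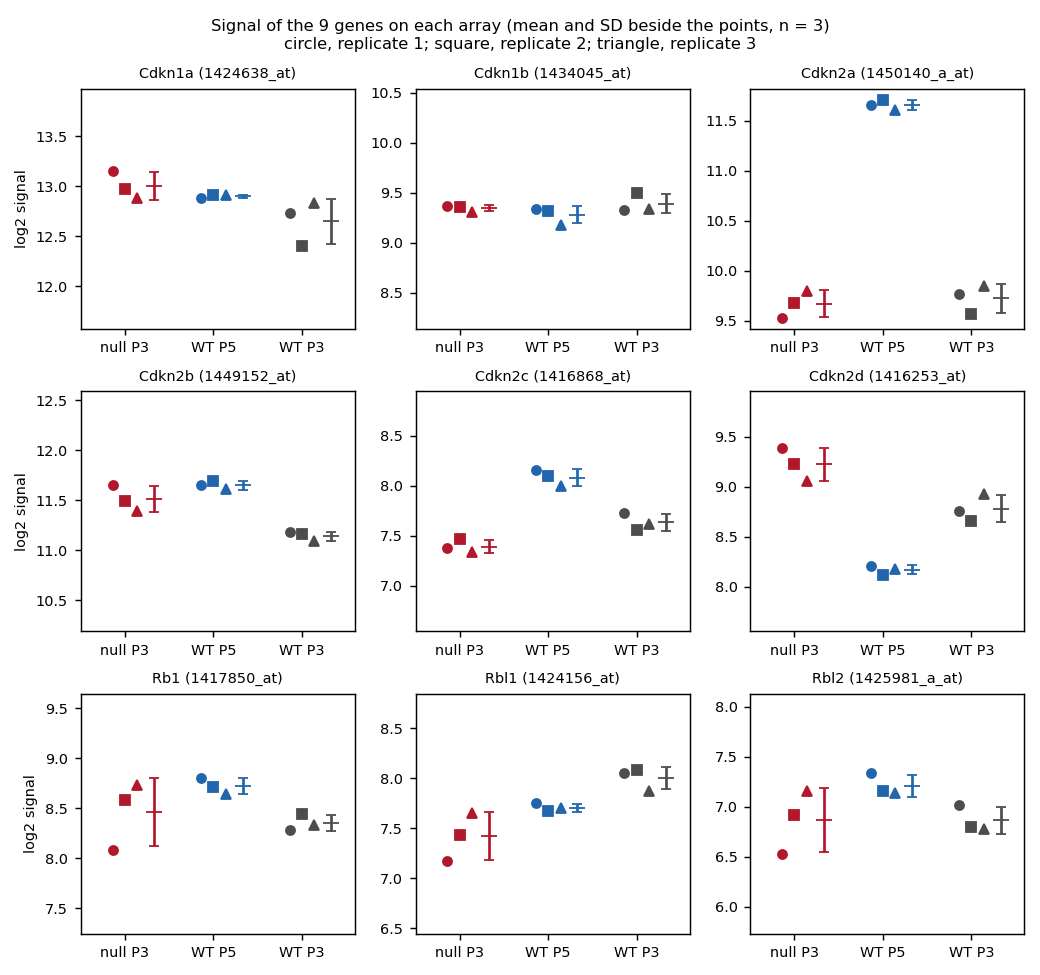
Log2 signal (vertical axis, scaled for each gene) of the brightest probe-set of each of the 9 genes on every array, with null cultures left, P5 in the middle and P3 right; bars give the mean and SD of 3 cultures. Cdkn2a is set apart in P5 only, Cdkn2c and Cdkn2d separate all 3 groups in opposite order, and in Rb1, Rbl1 and Rbl2 null replicate 1 is the lowest point.

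Cdkn1a, the p53 and TGF-beta target p21, was read by a pair of bright probe-sets that gave the same order of groups. On probe-set 1421679_a_at the signals were 12.82, 12.78 and 12.61 in the null cultures and 12.61, 12.71 and 12.61 in the P5 cultures, against 12.27, 12.18 and 12.44 in the P3 cultures. On the brighter 1424638_at they were 13.15, 12.97 and 12.88 in the null cultures and 12.88, 12.91 and 12.91 in the P5 cultures, against 12.73, 12.40 and 12.83 in the P3 cultures. On both, every null and every P5 culture was above every P3 culture, and the null and P5 cultures overlapped. The null was above P3 by 0.44 (SE 0.085, 1.36-fold, adjusted p = 0.0724) and 0.35 (SE 0.12, 1.27-fold, adjusted p = 0.354) on the 2 probe-sets. P5 was above P3 by 0.35 (SE 0.085, adjusted p = 0.0599) and 0.25 (SE 0.12, adjusted p = 0.374). None of these passed the test, and the intervals between null and P5 were -0.11 to 0.30 and -0.19 to 0.39.

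Cdkn1b, the inhibitor p27, whose protein is controlled largely by its destruction through Skp2, was the steadiest of the 9. Probe-set 1434045_at read 9.37, 9.36 and 9.31 in the null cultures and 9.34, 9.32 and 9.18 in the P5 cultures, against 9.33, 9.50 and 9.34 in the P3 cultures, with overlap between all groups. Differences were -0.04 between null and P3 (interval -0.19 to 0.10), -0.11 between P5 and P3 (-0.25 to 0.04) and 0.07 between null and P5 (-0.08 to 0.21). The third member of the family, Cdkn1c, which is not among the 9, averaged 9.65 in the null and 6.91 in P5, against 9.19 in P3. Cdkn1c fell by 2.27 in P5 against P3 (SE 0.16, adjusted p = 0.000972) and rose in the null over P5 by 2.74 (SE 0.16, adjusted p = 0.000628), while its difference of 0.46 between null and P3 did not pass (adjusted p = 0.366). Cdkn3, a phosphatase that acts on cyclin-dependent kinases, passed in none of the comparisons, with averages of 8.13 in the null, 8.01 in P5 and 8.39 in P3.

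None of the pocket proteins passed the test in any comparison. Rb1 read 8.09, 8.58 and 8.74 in the null cultures and 8.80, 8.72 and 8.64 in the P5 cultures, against 8.28, 8.44 and 8.34 in the P3 cultures. Every P5 culture was above every P3 culture for Rb1, by 0.37 on average (SE 0.16, adjusted p = 0.310), and the null overlapped both. Without null replicate 1, which is in neither group but enters the common spread of the fit, the same difference passed (adjusted p = 0.0343). Rbl1 on 1424156_at had signals of 7.17, 7.43 and 7.65 in the null and 7.75, 7.67 and 7.70 in P5, against 8.05, 8.08 and 7.87 in P3. The null was lowest without overlap, 0.58 below P3 (SE 0.12, difference -0.58, adjusted p = 0.0968), and P5 lay between them, at -0.30 from P3 (adjusted p = 0.267). The dimmer Rbl1 probe-set 1425166_at gave the same order of group means with overlap, 4.35 ± 0.28 in the null and 4.67 ± 0.20 in P5, against 5.02 ± 0.46 in P3 (SD, n = 3 each). Rbl2 read 6.53, 6.92 and 7.16 in the null cultures and 7.34, 7.16 and 7.14 in the P5 cultures, against 7.02, 6.80 and 6.78 in the P3 cultures, where P5 was above P3 without overlap (difference 0.34, SE 0.17, adjusted p = 0.361) and null and P3 differed by 0.00 (interval -0.40 to 0.40).

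The 5 remaining probe-sets, 1 each of Cdkn1b, Rb1 and Rbl2 and 2 of Rbl1, stayed between 2.23 and 3.27 on all arrays, at or near the lowest value, where a decrease cannot be seen. Of these, 1418146_a_at of Rbl2 was the highest, at 2.88, 2.89 and 2.89 in the null cultures and 3.27, 3.25 and 2.93 in the P5 cultures, against 2.89, 2.89 and 2.55 in the P3 cultures.

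Null and P3 differ in genotype at an equal passage, and their cultures also differed in the macrophage and muscle markers given below. Effects of genotype and of cell mix cannot be told apart here. Between null and P3, 0 of the 16 probe-sets rose, against 0.898% of all probe-sets, and 0 fell, against 0.692%. These shares come from 405 and 312 calls, which ranged from 121 to 390 and from 121 to 355 when 1 array was left out. An unadjusted p under 0.05 was reached by 7 of the 16 and by 10.2% of all probe-sets. Stricter rules asked for a log2 difference of 0.5 or more and a p under 0.0001, either the moderated F p over the 3 groups (the F rule) or that of the pair of groups (the pair-wise rule): 0 of the 16 passed the F rule, against 0.568% of all, and 0 the pair-wise rule, against 0.395%. The groups did not overlap for 6 probe-sets, 4 higher (Cdkn1a on both, Cdkn2b, Cdkn2d) and 2 lower (Cdkn2c, Rbl1) in the null, while 10.9% of all probe-sets did not overlap in either direction. The threshold lay close to the adjusted p of several genes: when only probe-sets above a log2 signal of 4 on at least 3 arrays were tested, 4 passed, Cdkn1a on 1421679_a_at (adjusted p = 0.0225), Cdkn2b (0.0261) and Cdkn2d (0.0327) as higher and Rbl1 on 1424156_at (0.0224) as lower in the null, and with robust regression 5 passed.

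With passage in wild type cells, P5 against P3, 3 of the 16 probe-sets rose, Cdkn2a, Cdkn2b and Cdkn2c, beside 4.29% of all probe-sets, and 1 fell, Cdkn2d, beside 4.33%. With 1 array left out, the 1936 and 1953 calls behind these shares ranged from 1034 to 2118 and from 1019 to 2249. An unadjusted p under 0.05 was reached by 6 of the 16, against 18.9% of all. The F rule was passed by 2 of 16, Cdkn2a and Cdkn2d, against 1.49% of all, and the pair-wise rule by 1, Cdkn2a, against 1.74%. No overlap was seen for 10 probe-sets, 8 higher and 2 lower in P5, where 22.1% of all probe-sets did not overlap. The 8 include 1418146_a_at of Rbl2, which was near the floor. Over the 9 genes, 6 were higher and 3 lower in P5, with a median difference of 0.34, while the median over all genes was 0. In each comparison the shares of all probe-sets include many at or near the floor. Only 18127 to 18258 of the 45101 per array were above a log2 signal of 4, a level that all 9 genes passed. No shares were taken among the brighter probe-sets alone. The median of 0 over all genes also takes in genes at or near the floor, and none was taken among brighter genes.

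The null differed from P5 in 3 probe-sets. Cdkn2d rose, 1 of 16 beside 3.58% of all probe-sets, and Cdkn2a and Cdkn2c fell, 2 of 16 beside 3.65%. The 1614 and 1644 calls behind these shares ranged from 817 to 1729 and from 936 to 1614 with 1 array left out. The 3 probe-sets were also those with an unadjusted p under 0.05, which 17.8% of all reached, and those past the F rule, against 1.46% of all, and past the pair-wise rule, against 1.6%. Groups did not overlap for 5, with 1 higher and 4 lower in the null, against 20.9% of all probe-sets. The 4 include the same Rbl2 probe-set near the floor, 1418146_a_at. These 3 comparisons share their arrays, so they are given side by side and not set against each other.

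**Figure D2:**
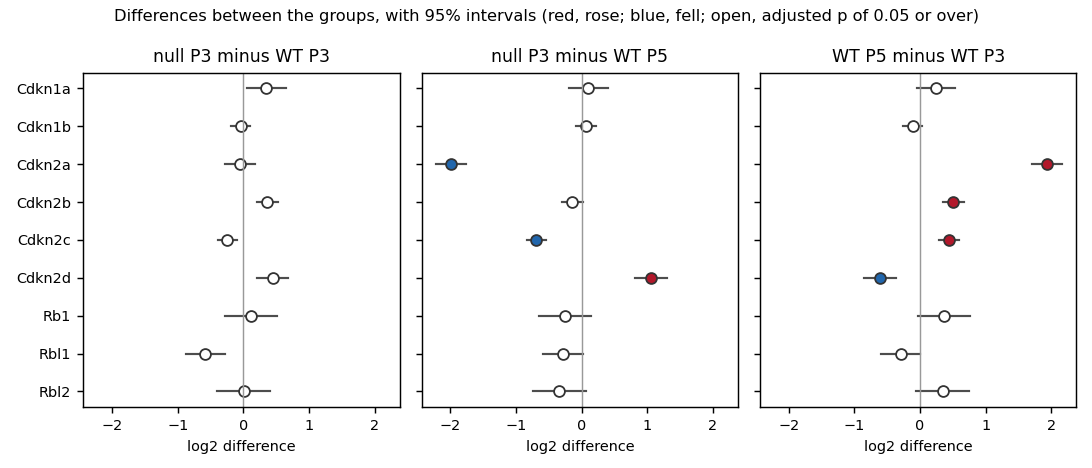
Log2 differences between groups (horizontal axis) for the brightest probe-set of each of the 9 genes, with 95% intervals; filled points passed the adjusted test (red rose, blue fell). The null differs from P3 in no filled point, from P5 in Cdkn2a, Cdkn2c and Cdkn2d, and P5 differs from P3 in Cdkn2a, Cdkn2b, Cdkn2c and Cdkn2d.

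The null cultures covered wider ranges than the wild type cultures in the pocket proteins. Rb1 spanned 0.65 over the null cultures and 0.16 in both P5 and P3, Rbl2 spanned 0.63 in the null, 0.20 in P5 and 0.24 in P3, and Rbl1 spanned 0.48 in the null, 0.080 in P5 and 0.21 in P3. Null replicate 1 was the lowest null culture for all 3 pocket proteins and for Cdkn2a, and the highest for Cdkn1a, Cdkn1b, Cdkn2b and Cdkn2d. The same culture had the highest level of macrophage and muscle markers. Its mean log2 signal over 12 macrophage markers was 4.98, with 4.35 and 4.49 in the other null cultures, 3.61 to 3.67 in P5 and 3.75 to 3.90 in P3, and its mean over 14 striated muscle markers was 6.70, with 6.21 and 6.26 in the other null cultures, 3.97 to 4.11 in P5 and 4.92 to 5.06 in P3. Over all 18194 genes, 1.51% rose and 1.07% fell in the null against P3, 6.08% rose and 5.33% fell in the null against P5, and 6.13% rose and 7.11% fell in P5 against P3. Of the macrophage markers, 1 of 12 rose and 0 fell in the null against P3, 6 rose and 0 fell in the null against P5, and 0 passed in P5 against P3. Of the muscle markers, 8 of 14 rose and 0 fell in the null against P3, 9 rose and 1 fell in the null against P5, and 1 rose and 5 fell in P5 against P3. As log2 of the summed linear signal, the macrophage markers reached 9.58 to 10.22 in the null and 8.46 to 8.70 in P5, against 8.95 to 9.07 in P3, and the muscle markers, with the bright Acta1 among them, 12.05 to 12.49 in the null and 12.11 to 12.39 in P5, against 11.14 to 11.17 in P3. Of these markers, Itgam, Ptprc and Fcgr1 for macrophages and Myod1, Myf5, Myh8 and Ckm for muscle were under 3 on all arrays. Above a log2 signal of 4 on at least 3 arrays were 6 of the 12 macrophage and 10 of the 14 muscle markers. Means over 10 epithelial and mesothelial markers were 4.32 to 4.42 in the null and 3.98 to 4.06 in P5, against 4.37 to 4.41 in P3, and means over 7 endothelial markers were 3.04 to 3.18 in the null and 2.73 to 2.88 in P5, against 2.98 to 3.04 in P3, where null replicate 1 was at 4.34 for the epithelial list, below null replicate 2, and level with null replicate 2 at 3.18 for the endothelial list. The part of these cells in the differences of Cdk inhibitors and pocket proteins was not tested. All 12 fibroblast markers were above a log2 signal of 4 on at least 3 arrays, with array means of 11.1 to 11.3 in the null and 11.6 to 11.7 in P5, against 11.3 to 11.4 in P3.

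Around the 9 genes, the kinases and cyclins that the inhibitors bind changed unequally. Of 9 G1 cyclins and Cdks, 2 rose and 0 fell in the null against P3 (all genes 1.51% and 1.07%), 1 rose and 3 fell in P5 against P3 (all genes 6.13% and 7.11%), and 3 rose and 2 fell in the null against P5 (all genes 6.08% and 5.33%). Cdk6, the partner kinase of the D-type cyclins and a target of the Ink4 proteins, rose in the null by 0.34 over P3 (adjusted p = 0.0194) and by 0.63 over P5 (adjusted p = 0.000893), and fell by 0.28 in P5 against P3 (adjusted p = 0.0111). Ccnd3, cyclin D3, rose in the null over P3 by 0.52 (adjusted p = 0.0469) and over P5 by 0.73 (adjusted p = 0.00556). Ccnd2, cyclin D2, rose in P5 over P3 by 0.56 (adjusted p = 0.00404) and fell by 0.49 in the null against P5 (adjusted p = 0.00704). Ccna2, cyclin A, which acts in S phase and G2, fell by 0.95 in P5 against P3 (adjusted p = 0.00134), and Ccne1, cyclin E, fell by 0.35 (adjusted p = 0.0364).

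E2f and Dp factors, the partners of the pocket proteins, had 10 measured genes, of which E2f2 and E2f4 were not above a log2 signal of 4 on 3 arrays. E2f4 read 2.23 on all 9 arrays, the lowest value of the data, so no change in it could be read. In the null 0 rose and 1 fell against P3 (all genes 1.51% and 1.07%). In P5 1 rose and 2 fell against P3 (all genes 6.13% and 7.11%). In the null 2 rose and 1 fell against P5 (all genes 6.08% and 5.33%). The atypical repressors E2f7 and E2f8 are themselves E2f targets. E2f7 fell by 1.13 in P5 against P3 (adjusted p = 0.000717) and fell by 0.45 in the null against P3 (adjusted p = 0.0481), and E2f8 fell by 1.05 in P5 against P3 (adjusted p = 0.00168). The repressor E2f6 rose in P5 over P3 by 0.32 (adjusted p = 0.0425). Tfdp2, a dimer partner of E2f factors, fell by 0.60 in the null against P5 (adjusted p = 0.0461). Of 7 genes of the MuvB core and its partners, which join p107 and p130 in the DREAM repressor or B-Myb and Foxm1 in activation, 0 passed in the null against P3, 3 fell in P5 against P3 and 2 rose in the null over P5. The shares of all genes beside these counts are those given for the E2f factors. Mybl2 (B-Myb) fell by 1.31 in P5 against P3 (adjusted p = 0.00466) and Foxm1 fell by 1.10 (adjusted p = 0.00684).

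**Figure D3:**
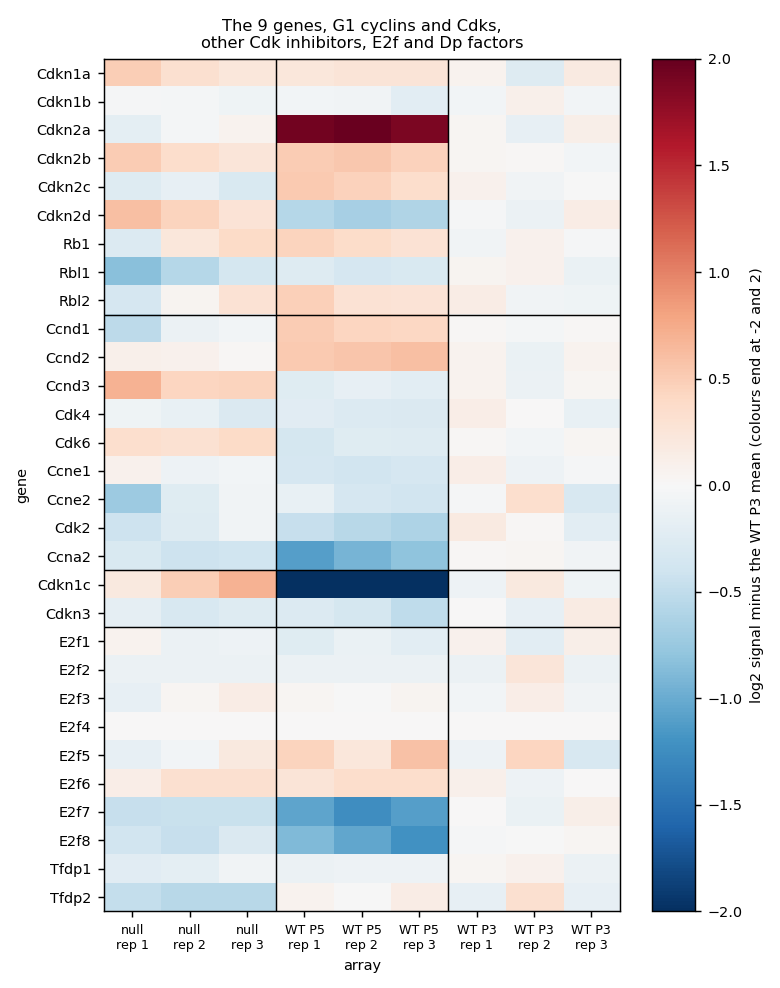
Log2 signal of each gene on each array minus its P3 mean, for the 9 genes and, below the lines, the G1 cyclins and Cdks, the other Cdk inhibitors, and the E2f and Dp factors; red is higher and blue lower than the P3 mean, with null arrays left, P5 in the middle and P3 right, and colours end at -2 and 2. Cdkn2a stands out as higher and Cdkn1c as lower in the 3 P5 arrays, while Ccnd3 and Cdk6 are higher in the 3 null arrays.

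The genes that these factors control fell broadly with passage. Of 33 measured replication genes regulated by E2f, 31 fell and 0 rose in P5 against P3, with a median difference of -0.88, where 7.11% of all 18194 genes fell and 6.13% rose. In the null 6 of the 33 fell and 0 rose against P3, with a median of -0.34, where 1.07% of all genes fell and 1.51% rose, and 20 rose and 0 fell against P5, with a median of 0.51, where 6.08% of all genes rose and 5.33% fell. Mcm5, part of the replicative helicase, fell by 1.16 in P5 (adjusted p = 0.000220) and fell by 0.55 in the null (adjusted p = 0.00821) against P3. Uhrf1, which guides maintenance DNA methylation, fell by 1.12 in P5 (adjusted p = 0.000237) and fell by 0.58 in the null (adjusted p = 0.00706) against P3. Of 23 mitotic genes regulated by DREAM, 23 fell in P5 against P3 (median -0.74), 9 fell and 0 rose in the null against P3 (median -0.36), and 15 rose and 0 fell in the null against P5 (median 0.45). Kif23, a kinesin of cytokinesis, fell by 0.87 in the null against P3 (adjusted p = 0.00782), and Cenpf, a kinetochore protein, fell by 0.43 in the null (adjusted p = 0.0196) and fell by 1.02 in P5 (adjusted p = 0.000389) against P3.

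Regulators of the inhibitors act on their genes or on their proteins. Over all genes, 1.51% rose and 1.07% fell in the null against P3, and 6.13% and 7.11% in P5 against P3. In the null against P5 these shares were 6.08% and 5.33%. Of 10 ubiquitin ligase genes for Cdk inhibitors, 0 rose and 1 fell in the null against P3, 1 rose and 3 fell in P5 against P3, and 2 rose and 0 fell in the null against P5. Skp2, which marks p27 for destruction and is also an E2f target, fell by 0.41 in the null (adjusted p = 0.0266) and fell by 0.94 in P5 (adjusted p = 0.000553) against P3. Of 13 polycomb genes that repress the Ink4 locus, 0 passed in the null against P3, 3 fell in P5 against P3 and 2 rose in the null over P5. In P5 against P3, Phc1 fell by 0.86 (adjusted p = 0.000683), the methyltransferase Ezh2 fell by 0.76 (adjusted p = 0.00102) and Kdm2b fell by 0.42 (adjusted p = 0.0364). Of 23 transcriptional regulators of Cdk inhibitors, 0 passed in the null against P3. In P5 against P3, 1 of the 23 fell, no larger a share than the 7.11% of all genes. In the null against P5, 2 rose and 3 fell. Tbx2, a T-box repressor of the Cdkn2a and Cdkn1a genes, fell by 1.13 in P5 against P3 (adjusted p = 0.0149) and rose in the null over P5 by 1.34 (adjusted p = 0.00930). Id1, which blocks the Ets and E-box factors that activate p16Ink4a and p21, fell by 1.35 in the null against P5 (adjusted p = 0.00861).

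The p53 and TGF-beta pathways act on Cdkn1a and Cdkn2b. Beside the shares of all genes given for the cyclins, of 21 p53 target genes other than Cdkn1a, 3 rose and 0 fell in the null against P3 (median 0.20), 9 rose and 1 fell in P5 against P3 (median 0.33), and 1 rose and 4 fell in the null against P5 (median -0.05). The death receptor Fas rose in the null over P3 by 1.01 (adjusted p = 0.0309), Gadd45a, a DNA damage response gene, by 0.62 (adjusted p = 0.0469) and the receptor Eda2r by 0.37 (adjusted p = 0.0350). Eda2r also rose in P5 over P3 by 0.42 (adjusted p = 0.00778), as did the membrane protein Perp by 1.32 (adjusted p = 0.0152). Of 14 TGF-beta target genes other than these inhibitors, 0 passed in the null against P3 (median 0.10), 6 rose and 0 fell in P5 against P3 (median 0.29), and 0 rose and 5 fell in the null against P5 (median -0.08). Ltbp2, a binding protein of the matrix, rose in P5 over P3 by 1.70 (adjusted p = 9.68e-05) and Timp3, a protease inhibitor, by 1.51 (adjusted p = 0.00302). Summed over the 11 lists, 22 calls were made in the null against P3 among 165 list places. This count was 0 with a prior for the spread that followed the signal and resisted extreme values, so every call of the null against P3 in these lists was lost there. It was 5 without P3 replicate 1, 6 without null replicate 2, 7 without P3 replicate 3, 8 without null replicate 3 or P5 replicate 1, 9 without P5 replicate 2 and 12 without P5 replicate 3. In the null against P5 the 65 calls came to 28 with that prior, 38 without P5 replicate 1 and 36 without P5 replicate 2.

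**Figure D4:**
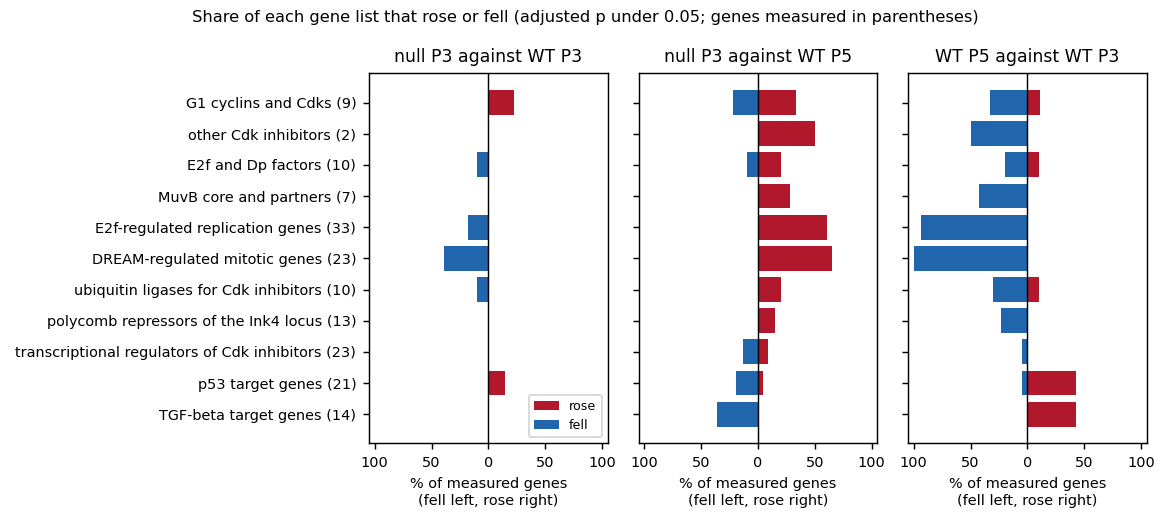
Share of the measured genes of each list (horizontal axis, percent) that rose (red, right) or fell (blue, left) at an adjusted p under 0.05 in each of the 3 comparisons, with the number of measured genes in parentheses. Bars of the replication and mitotic genes point left in both comparisons with P3 and right in the null against P5.

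For each gene with a span of at least 0.5 over the 9 arrays, the genes with the most similar profile were listed by Pearson's r over those 9 arrays, as a description, since all points share the same group differences. Cdkn1b did not reach that span. For Cdkn2a these were Klf9 (r = 0.998), Elobl (0.994) and Rarres1 (0.994), which averaged 11.83, 3.59 and 2.23 in the null and 12.55, 5.76 and 6.69 in P5, against 11.82, 3.51 and 2.23 in P3. Cdkn2d was most like Zwint (0.990), a kinetochore gene, Slc38a6 (0.989), an amino acid transporter gene, and Mylpf (0.988), a gene of the muscle myosin light chain, which averaged 8.63 in the null and 4.20 in P5, against 6.59 in P3. Cdkn2c resembled Hspb6 (0.985), Nfkbia (0.984) and Emilin2 (0.982), and Cdkn2b resembled Pef1 (0.993), Rhbdd1 (0.980) and Nid2 (0.978). The profile of Cdkn1a was closest to Cend1 (0.987), Fitm2 (0.981) and Heatr5b (0.979). Among the pocket proteins, Rb1 was closest to Diaph2 (0.992), Eogt (0.984) and Peak1 (0.983), Rbl1 to Snx5 (0.992), Gpsm2 (0.976) and Lpar1 (0.967), and Rbl2 to Mvb12b (0.973), Nufip2 (0.966) and Tbc1d12 (0.956).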

How the data were processed

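RNA of 9 MEF cultures, independent within each group per the paper, was hybridised to Affymetrix MOE430 2.0 arrays, 1 array each. The paper does not state whether they came from different embryos, or whether the P5 cultures were grown on from the P3 cultures. The authors deposited log2 signals made with GCRMA, which corrects probes for background by their sequence, normalizes arrays by quantiles and summarises probe-sets. Per the submitters' processing notes limma was a further tool, without versions in those notes. No normalization was added to the deposited log2 values. The number of arrays limits the precision, and signals at the floor of 2.23 cannot show a decrease.

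Symbols came from the platform annotation, updated by gene number through RefSeq (GRCm38.p6). A single symbol was given to 34958 probe-sets, while 932 had several and 9211 are unnamed here. The means of the 3 groups were estimated from all 9 arrays with limma 3.58.1 in R 4.3.3 (lmFit, eBayes). "Rose" and "fell" mean a Benjamini-Hochberg adjusted p under 0.05 over all 45101 probe-sets. Lists use the brightest probe-set of a gene.

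The members, the 11 gene lists and the marker lists were chosen with earlier results of these data known, so they give no independent support. Named genes are all members, up to 4 passing genes of each list with the smallest p, the other Cdk inhibitors, Tgif1 and the 3 most similar genes per member. Markers of other cells were read from 5 lists.

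The fit was run on simulated data with added shifts larger than most differences of the members, so that run does not cover the smaller ones. Alternatives were dim-probe filters at 4 and 6, a trended and robust prior, robust regression (MASS 7.3.60.0.1), quantile normalization, median centring, the mean of a gene's probe-sets, the 6 arrays of 2 groups alone, calls by an F p or pair-wise p under 0.0001 with a log2 difference of at least 0.5, the replicate number as a block and each array left out. Sequences are RefSeq's promoter windows, whose orientation was checked on 1887 overlapping windows of opposite strands. Public data, quantitative PCR and the paper's supplementary tables were not used.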

Additional observations from a re-analysis of the deposited data

How the results depend on the processing

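No single-gene difference reversed as a called value: of the alternative values of the members, 528 kept their side of the threshold, 23 passed it newly and 7 lost it. Of the 7 losses, 6 of 17 settings were for the fall of Cdkn2d in P5 against P3 (adjusted p up to 0.0697). The other was 1 of 17 for the increase of Cdkn2c in P5 against P3 (0.108). Cdkn2a and Cdkn2b in P5 against P3 and Cdkn2a, Cdkn2c and Cdkn2d in the null against P5 passed in all 17. The F rule and the pair-wise rule are not among the 17, and Cdkn2b in P5 against P3 passed neither. Among the 16 probe-sets the number called was 0, 4 and 3 for null against P3, P5 against P3 and null against P5. For null against P3 it was 4 with the filter above 4, 4 with the filter above 6, 5 with robust regression and 1 (Rbl1) with median centring. For P5 against P3 it was 5 with either filter, 9 with robust regression and 2 with the trended and robust prior. The 9 include a probe-set at or near the floor. For P5 against P3 it was also 2 by the F p with a log2 difference of at least 0.5, and 1 by the pair-wise p with that difference. This pair-wise rule was added after seeing the data and gave 0 and 3 for the other comparisons. For null against P5 the number was 4 with robust regression. Leaving out 1 array gave 0 in every case for null against P3, 3 to 5 for P5 against P3 and 3 in every case for null against P5. Filters test fewer probe-sets, and the cause of the other changes was not tested.

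Over the 11 lists, the 22 calls of null against P3 became 0 with the trended and robust prior and 5 to 18 with 1 array left out. For P5 against P3 the 89 calls ranged from 64 to 97 with 1 array left out. For null against P5 the 65 calls became 28 with that prior and 36 to 64 with 1 array left out. Deviations of same-numbered arrays correlated between -0.488 and 0.393, with 4 of 9 pairs over 0.1. Of the 9 arrays, 0 correlated best with its own number in both other groups. Between P3 and P5 alone, same-numbered arrays correlated at -0.0534, 0.157 and 0.139 for replicates 1, 2 and 3. There replicates 2 and 3 were each other's best match by number. With 3 arrays per group this check cannot decide whether cultures were paired. With the replicate block the members had 0, 3 and 3 calls, and Cdkn2d in P5 against P3 was the call lost (adjusted p = 0.0616). The list calls were 3 for null against P3, 68 for P5 against P3 and 39 for null against P5. Groups of 3 arrays allow no exact permutation p below 0.1, and signals at the floor of 2.23 hide decreases.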
